A study of Canis lupus familiaris with 69 samples.

Results

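A set of 9 genes that mark B cells and plasma cells was followed in the endometrium of 69 dogs: JCHAIN, MZB1, POU2AF1, CD79A, CD79B, MS4A1, XBP1, PRDM1 and IRF4. They were chosen by symbol, with earlier results of these data known. All 9 were measured, each by 1 probe set, and they are 9 of the 15947 genes measured under a single gene symbol. The dogs were 17 with pyometra (a uterus filled with pus), 15 with mucometra (a uterus filled with sterile mucus), 16 with cystic endometrial hyperplasia (CEH, a thickened endometrium with cystic glands) and 21 healthy dogs in diestrus, the luteal phase of the canine cycle. Each dog gave 1 Affymetrix Canine Gene 1.0 ST array of endometrial RNA, from which the exudate in the lumen had been kept out. Per the study, the healthy dogs were taken in early diestrus, while dogs of the other diagnoses were older and of mixed cycle stages and those with pyometra had more often received progesterone compounds, so stage, age, treatment and diagnosis cannot be told apart here. The labels give no age, treatment or cervix condition for any dog, and none was used. The labels call the 15 mucometra samples hemometra in a second field, and their titles were followed.

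B cells carry an antibody on their surface as part of the B cell receptor, and after stimulation by antigen some of them become plasma cells, which make and secrete antibody in large amounts. The switch is driven by the transcription factors IRF4, PRDM1 (Blimp-1) and XBP1, while the surface genes of the B cell are turned down as it proceeds. In mucosal tissues such as the uterus, plasma cells in the stroma make IgA that is joined by the J chain and carried across the epithelium into the lumen. The antibody heavy and light chain genes themselves were not analysed here.

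Values are log2 expression per gene, so a difference of 1 is a 2-fold change. A gene is called higher or lower where the fold change reached 2 and the adjusted p (limma, Benjamini-Hochberg over all 15947 genes) was under 0.05. Of the 9 genes, 7 were called higher in pyometra than in diestrus and none lower, where 6.72% of all genes were called higher and 3.26% lower. Against the dogs of the other 3 diagnoses together 7 were higher and none lower (4.37% and 1.47% of all genes). The count was 7 higher and none lower against CEH (4.28% and 1.67%) and 6 higher and none lower against mucometra (2.82% and 0.834%). The median log2 fold change of the 9 genes was 2.27 against diestrus, 1.85 against CEH and 1.57 against mucometra, where the medians of all genes were -0.05, -0.03 and -0.03. These comparisons share the dogs with pyometra, and the 9 genes were chosen with earlier results of these data known. In whole endometrium, more cells of a type and more RNA per cell cannot be told apart.

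Fewer of the genes were called in the sterile diseases. In mucometra 2 of the 9 genes, JCHAIN and PRDM1, were called higher than in diestrus and none lower (3.56% and 2.8% of all genes), and in CEH the same 2 genes were higher and none lower (0.865% and 0.953%). None of the 9 was called in either direction in mucometra against CEH, where 0.138% of all genes were called higher and 0.00627% lower. The 22 genes called higher there were 6 without mucometra dog 182 and 7 without pyometra dog 100 and mucometra dog 216, with none lower in either repeat. In that comparison 1 of the 9 had an unadjusted p under 0.05 by limma. The median log2 fold change of the 9 genes was 0.62 in mucometra and 0.42 in CEH, both against diestrus, and -0.01 over all genes in each.

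**Figure D1:**
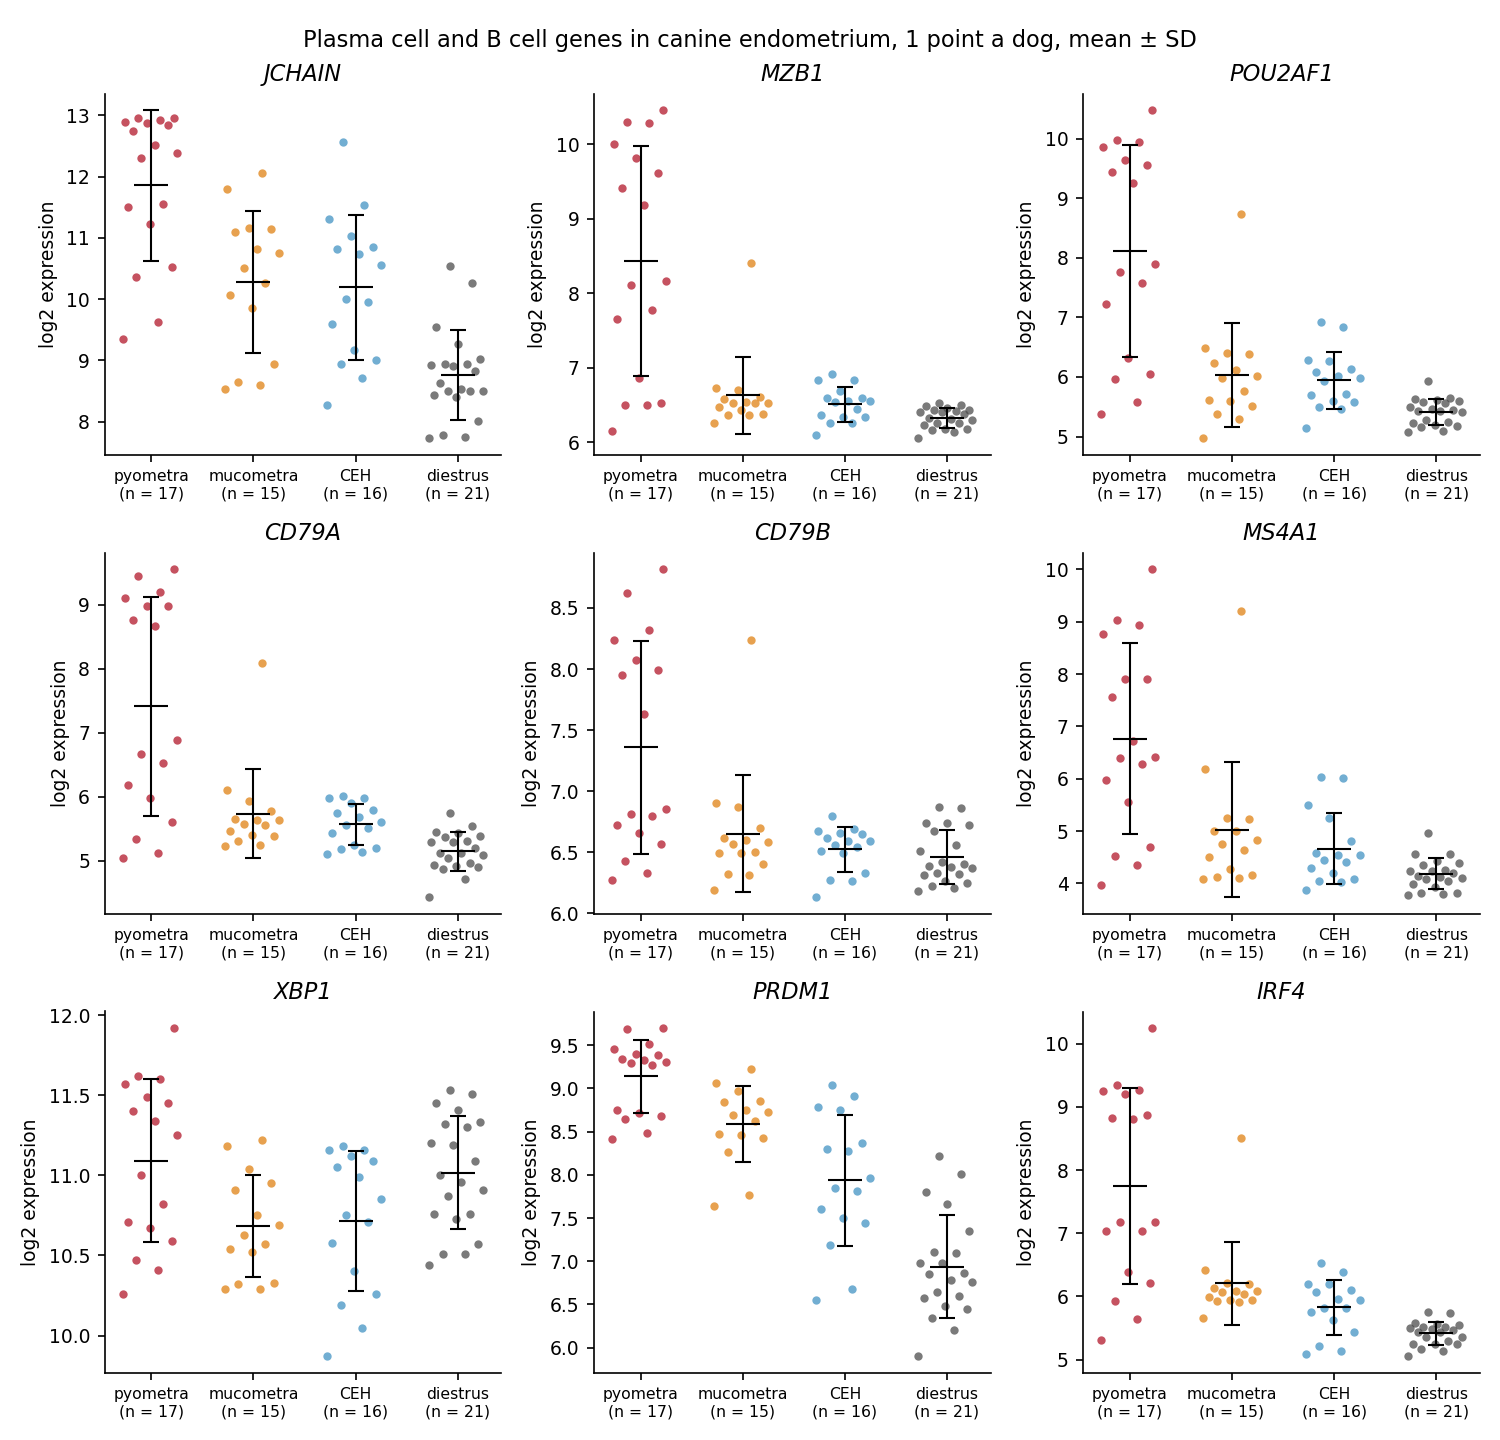
Log2 expression of the 9 genes (vertical axes, each with its own range), 1 point per dog, in pyometra (n = 17), mucometra (n = 15), CEH (n = 16) and diestrus (n = 21), with the mean and SD as bars. For CD79A, 8 dogs with pyometra lie at 8.67 or above and 9 at 6.89 or below, and the single high mucometra point, at 8.09, is dog 182.

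JCHAIN encodes the small chain that links IgA or IgM units into the polymers that the epithelium can transport. Its log2 values ran from 9.35 to 12.96 in pyometra with a median of 12.39, from 8.54 to 12.06 in mucometra with a median of 10.50, from 8.28 to 12.57 in CEH with a median of 10.29, and from 7.73 to 10.54 in diestrus with a median of 8.64. The groups overlapped, yet 13 of 17 dogs with pyometra, 7 of 15 with mucometra and 8 of 16 with CEH lay above every diestrus dog. JCHAIN was 8.52-fold higher in pyometra than in diestrus (log2 fold change 3.09 ± 0.31, SE; adjusted p = 9.41e-11), rank 61 of all genes by fold. It was also higher in pyometra than in CEH (1.66 ± 0.40, adjusted p = 0.00141) and mucometra (1.57 ± 0.40, adjusted p = 0.00331). Among the 9 genes JCHAIN had the largest difference between CEH and diestrus (1.43 ± 0.30, adjusted p = 0.000963), and in mucometra it was 1.52 ± 0.30 above diestrus (adjusted p = 7.3e-05). Mucometra and CEH, next to each other in this order, did not pass a test of their difference (0.09 ± 0.40, adjusted p = 0.929).

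MZB1, an endoplasmic reticulum protein that helps assemble antibody in B and plasma cells, had a narrower range outside pyometra. Values lay between 6.15 and 10.46 in pyometra (median 8.16), between 6.25 and 8.41 in mucometra (median 6.52), between 6.09 and 6.91 in CEH (median 6.55) and between 6.05 and 6.53 in diestrus (median 6.32). Of the 17 dogs with pyometra, 8 exceeded all 52 other dogs and 13 exceeded all in diestrus. The fold was 4.31 against diestrus (log2 2.11 ± 0.33, adjusted p = 9.37e-07), with log2 differences of 1.92 ± 0.38 against CEH (adjusted p = 0.000152) and 1.80 ± 0.40 against mucometra (adjusted p = 0.000977). The SD was 1.55 in pyometra and 0.14 in diestrus. Mucometra and CEH were 0.30 ± 0.11 (adjusted p = 0.0265) and 0.19 ± 0.06 (adjusted p = 0.0248) above diestrus, the smallest such differences with an adjusted p under 0.05 among the 9 genes.

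POU2AF1 (OCA-B), the lymphoid partner of the octamer-binding factors on antibody gene promoters, changed in the same direction. It spanned 5.38 to 10.48 in pyometra (median 7.89), 4.97 to 8.73 in mucometra (median 5.98), 5.15 to 6.92 in CEH (median 5.96) and 5.08 to 5.93 in diestrus (median 5.43). In pyometra 15 of 17 dogs were above the highest diestrus dog and 8 above all 52 other dogs. POU2AF1 was 6.48-fold higher in pyometra than in diestrus (2.70 ± 0.37, adjusted p = 1.22e-07), 4.48-fold higher than in CEH (2.16 ± 0.44, adjusted p = 0.000227) and 4.22-fold higher than in mucometra (2.08 ± 0.48, adjusted p = 0.00141). Its differences from diestrus in mucometra (0.62 ± 0.19, adjusted p = 0.00692) and CEH (0.53 ± 0.12, adjusted p = 0.00108) had small p values but stayed under 2-fold.

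CD79A and CD79B are the paired signalling chains of the B cell receptor. CD79A had values from 5.04 to 9.56 in pyometra (median 6.89), 5.23 to 8.09 in mucometra (median 5.58), 5.11 to 6.01 in CEH (median 5.59) and 4.43 to 5.75 in diestrus (median 5.12). The lower dogs with pyometra lay within the range of the other diagnoses, while 8 dogs exceeded them all. CD79A was 4.81-fold higher in pyometra than in diestrus (2.27 ± 0.37, adjusted p = 1.9e-06), 3.60-fold higher than in CEH (1.85 ± 0.42, adjusted p = 0.000696) and 3.21-fold higher than in mucometra (1.68 ± 0.45, adjusted p = 0.0045). In mucometra it was 0.58 ± 0.17 above diestrus (adjusted p = 0.00343) and in CEH 0.42 ± 0.10 (adjusted p = 0.00278), both short of 2-fold.

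CD79B had the same order with a smaller spread. It lay between 6.27 and 8.82 in pyometra (median 6.85), 6.19 and 8.24 in mucometra (median 6.57), 6.13 and 6.80 in CEH (median 6.58) and 6.18 and 6.87 in diestrus (median 6.39). The pyometra median was thus inside the diestrus range, and 8 dogs with pyometra were above it. Its difference from diestrus was 0.90 ± 0.19 (adjusted p = 0.000144), from CEH 0.84 ± 0.22 (adjusted p = 0.00247) and from mucometra 0.71 ± 0.24 (adjusted p = 0.0237). Each of these was under the 2-fold filter, so CD79B was called in no comparison.

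MS4A1 encodes CD20, a surface protein of B cells that plasma cells lack. It ran from 3.97 to 10.01 in pyometra (median 6.41), the widest range of the 9 genes there, from 4.08 to 9.20 in mucometra (median 4.75), from 3.88 to 6.04 in CEH (median 4.50) and from 3.78 to 4.97 in diestrus (median 4.15). In pyometra 13 of 17 dogs were above every diestrus dog, but only dog 205 was above all 52 others, because mucometra dog 182 stood at 9.20. MS4A1 was 5.98-fold higher in pyometra than in diestrus (2.58 ± 0.39, adjusted p = 5.65e-07), 4.28-fold higher than in CEH (2.10 ± 0.47, adjusted p = 0.000587) and 3.34-fold higher than in mucometra (1.74 ± 0.54, adjusted p = 0.0122). Against diestrus it was 0.84 ± 0.28 in mucometra (adjusted p = 0.0123) and 0.48 ± 0.16 in CEH (adjusted p = 0.0248), under the filter in both.

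IRF4, the transcription factor that B cells need to become plasma cells and that activated T cells also use, had values from 5.31 to 10.25 in pyometra (median 7.18), 5.65 to 8.50 in mucometra (median 6.07), 5.08 to 6.53 in CEH (median 5.88) and 5.05 to 5.76 in diestrus (median 5.44). In mucometra 14 of 15 dogs were above the highest diestrus dog, as were 15 of 17 with pyometra and 10 of 16 with CEH. The fold in pyometra was 5.04 against diestrus (2.33 ± 0.33, adjusted p = 1.59e-07), 3.78 against CEH (1.92 ± 0.39, adjusted p = 0.000209) and 2.91 against mucometra (1.54 ± 0.41, adjusted p = 0.00445). Mucometra was above diestrus by 0.79 ± 0.15 (adjusted p = 2.56e-05) and CEH by 0.41 ± 0.10 (adjusted p = 0.00361), each under 2-fold.

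PRDM1, the repressor that shuts down the B cell program and that epithelium and T cells can also express, had a different median in each diagnosis. Its values ran from 8.41 to 9.70 in pyometra (median 9.30), from 7.64 to 9.23 in mucometra (median 8.69), from 6.55 to 9.04 in CEH (median 7.91) and from 5.90 to 8.22 in diestrus (median 6.85). All 17 dogs with pyometra lay above all 21 in diestrus, a separation that 0.985% of all genes showed. PRDM1 was 4.60-fold higher in pyometra than in diestrus (2.20 ± 0.17, adjusted p = 9.16e-14), 3.14-fold higher in mucometra (1.65 ± 0.18, adjusted p = 2.16e-09) and 2.004-fold higher in CEH (1.00 ± 0.22, adjusted p = 0.00101). With arrays centred on their medians the difference of CEH from diestrus was 0.98, just under the filter. Pyometra was 2.30-fold higher than CEH (1.20 ± 0.20, adjusted p = 2.88e-05). Pyometra against mucometra gave 0.55 ± 0.15 (adjusted p = 0.00442), which did not reach 2-fold, and mucometra against CEH 0.65 ± 0.22 (adjusted p = 0.0929).

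XBP1, the transcription factor that expands the secretory machinery in plasma cells and in other secretory cells such as gland epithelium, was called in no comparison. It lay between 10.26 and 11.92 in pyometra (median 11.25), 10.29 and 11.22 in mucometra (median 10.63), 9.87 and 11.18 in CEH (median 10.80) and 10.44 and 11.53 in diestrus (median 11). The 4 groups overlapped throughout, although 4 dogs with pyometra exceeded all 52 dogs of the other diagnoses. Pyometra differed from diestrus by 0.08 ± 0.14 (adjusted p = 0.671), from CEH by 0.38 ± 0.16 (adjusted p = 0.0588) and from mucometra by 0.41 ± 0.15 (adjusted p = 0.0295). In mucometra and CEH the values against diestrus were negative, at -0.33 ± 0.11 (adjusted p = 0.013) and -0.30 ± 0.13 (adjusted p = 0.0725).

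**Figure D2:**
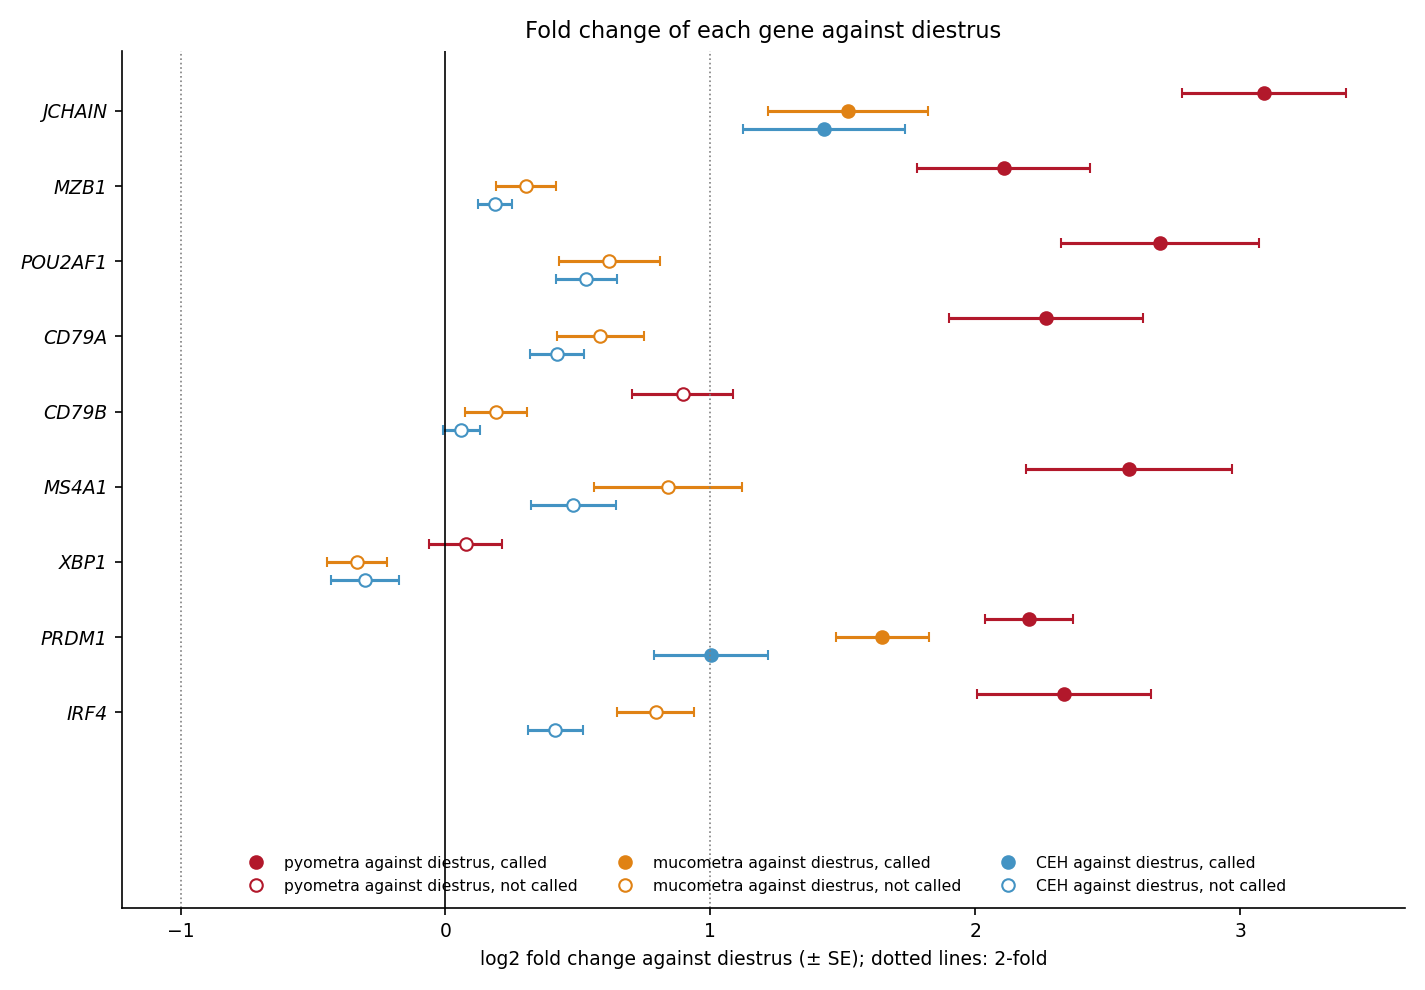
Log2 fold change (horizontal axis, ± SE) of each gene in pyometra, mucometra and CEH, each against the same 21 diestrus dogs, with filled points where the gene was called. For pyometra 7 genes are filled, led by JCHAIN at 3.09, and only JCHAIN and PRDM1 are filled for mucometra and CEH.

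The values of several genes left a wide gap among the 17 dogs with pyometra. Ordered by value, the widest gap between neighbouring dogs was 1.78 for CD79A (6.89 below, 8.67 above), 1.63 for IRF4, 1.37 for POU2AF1, 1.03 for MZB1 and 0.78 for CD79B. For each of these 5 genes the same 8 dogs were above the gap and the same 9 below it. For JCHAIN the widest gap, 0.75, had 10 dogs above it, the same 8 and dogs 225 and 228, and for PRDM1 (gap 0.52) 11 dogs were above it. MS4A1 and XBP1 had their widest gap below a single dog, 205. These 2 sets were drawn from the values of the genes themselves, so they are given as a description with no test, and how wide a gap 17 dogs give by chance was not tested. Whether the sets differ in treatment or cervix condition was not tested, since the labels do not give these.

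In the upper set JCHAIN ran from 12.39 to 12.96 and in the lower set from 9.35 to 12.52. MZB1 lay between 9.19 and 10.46 in the upper set and between 6.15 and 8.16 in the lower, and MS4A1 between 6.72 and 10.01 and between 3.97 and 6.41. XBP1, which was called in no comparison of diagnoses, had values from 11.25 to 11.92 in the upper set and from 10.26 to 11.34 in the lower. As the sets were drawn from these genes, high values in the upper set follow in part from that choice. Every dog of the upper set exceeded all 52 dogs of the other diagnoses in at least 6 of the 9 genes. Dog 205 did so in 9, dog 229 in 8, and dogs 206 and 222 in 7. In the lower set this held for 1 gene in dogs 198, 228 and 231 and for none in the other 6 dogs. Dogs 198, 207 and 214 had 7 of the 9 genes at or below the highest diestrus dog, and dog 214 was the lowest of the 17 in JCHAIN (9.35), MZB1 (6.15), CD79B (6.27), MS4A1 (3.97) and PRDM1 (8.41).

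**Figure D3:**
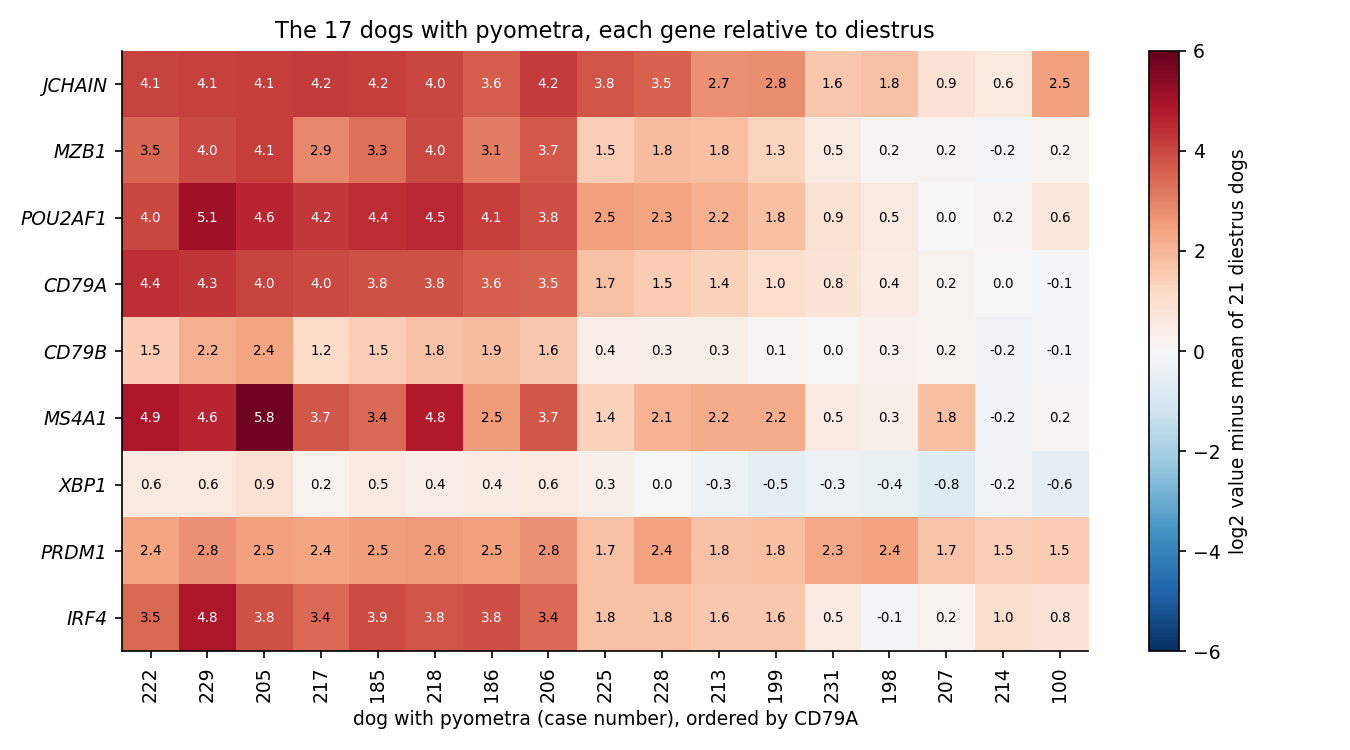
The 17 dogs with pyometra (columns, by case number, ordered by CD79A) and the 9 genes (rows). Each cell gives the log2 value minus the mean of the 21 diestrus dogs, and the 8 dogs of the upper set fill the left side, with XBP1 less than 1 away from 0 in every dog and PRDM1 more than 1 above 0 in all.

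Among the CEH dogs the extremes were also shared between genes. Dog 94 was the highest of the 16 in JCHAIN (12.57), MZB1 (6.91), CD79A (6.01) and PRDM1 (9.04), and dog 81 the lowest in MZB1 (6.09), POU2AF1 (5.15), PRDM1 (6.55) and IRF4 (5.08). The JCHAIN value of dog 94 was the highest of all 52 dogs without pyometra, while its CD79A was below that of mucometra dog 182 (8.09).

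A mucometra dog stood apart in the same genes. Dog 182 had the highest value of the 15 mucometra dogs in all 9 genes and the highest of the 52 dogs without pyometra in 7 of them, ranking 2 in JCHAIN and 8 in XBP1. Its MS4A1 was 9.20 where the next mucometra dog had 6.19, its POU2AF1 8.73 where the next had 6.49, and its CD79A 8.09 where the next had 6.11. The gap was much smaller for JCHAIN (12.06, next 11.79) and PRDM1 (9.23, next 9.06). Without this dog, a choice made after its values were seen, MS4A1 in mucometra against diestrus was 0.54 in place of 0.84, MZB1 was 0.18 in place of 0.30, and CD79B was 0.08 in place of 0.19. The calls did not change in any comparison with this dog left out: 6 of the 9 genes were higher in pyometra than in mucometra, and 2 higher in mucometra than in diestrus. The T and NK cell list was also highest in dog 182 among the mucometra dogs (mean log2 value 7.48, next 6.89), while its macrophage (7.34) and neutrophil (5.78) lists ranked 7 and 10 of 15. The part of these cells in its values was not tested.

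Correlations between the 9 genes were computed over dogs within mucometra without dog 182, CEH and diestrus, 36 pairs in each and 108 in all, with two-sided permutation tests and Benjamini-Hochberg adjustment over the 108. The 2 sets of dogs with pyometra were drawn from these genes, so r within them is a description with no test. The median r of the 36 pairs was 0.66 in the lower set and 0.35 in the upper set. In mucometra 3 pairs passed by Pearson's r and 2 of them by rho too, led by JCHAIN with POU2AF1 (r = 0.79, permutation p = 0.00102, adjusted 0.0142; rho = 0.82, p = 0.00051, adjusted 0.0154; r = 0.78 without the 2 farthest dogs). In diestrus, where the genes varied little, the median r was 0.06 and 2 pairs passed by r, neither of them by rho. They were CD79B with MS4A1 (r = 0.55, permutation p = 0.00949, adjusted 0.041; rho = 0.51, p = 0.0198, adjusted 0.0792; r = 0.64 without the 2 farthest) and POU2AF1 with PRDM1 (r = -0.55, permutation p = 0.0104, adjusted 0.0431; rho = -0.55, p = 0.0117, adjusted 0.0575; r = -0.66 without the 2 farthest).

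In CEH 22 of the 36 pairs passed by r, 18 positive and 4 negative, and 17 passed by both r and rho. JCHAIN and POU2AF1 had r = 0.84 (permutation p = 4e-05, adjusted 0.00432) and rho = 0.81 (p = 0.00023, adjusted 0.0124), and r = 0.80 without the 2 farthest of 16 dogs. The 4 negative pairs all joined XBP1 to another gene: to PRDM1 (r = -0.69), JCHAIN (r = -0.66), MS4A1 (r = -0.65) and POU2AF1 (r = -0.64). XBP1 with PRDM1 had a permutation p of 0.00306 for r (adjusted 0.0274) and rho = -0.66 (p = 0.00674, adjusted 0.0428), with r = -0.54 without the 2 farthest dogs. XBP1 with JCHAIN had a permutation p of 0.00588 for r (adjusted 0.0318) and rho = -0.60 (p = 0.0148, adjusted 0.0694), with r = -0.55 without the 2 farthest dogs. XBP1 with MS4A1 had rho = -0.44 (permutation p = 0.0869, adjusted 0.223), with r = -0.39 without the 2 farthest dogs. For XBP1 with POU2AF1 rho was -0.40 (permutation p = 0.127, adjusted 0.286), and r was -0.28 without the 2 farthest dogs. Only the pair with PRDM1 passed by rho as well.

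**Figure D4:**
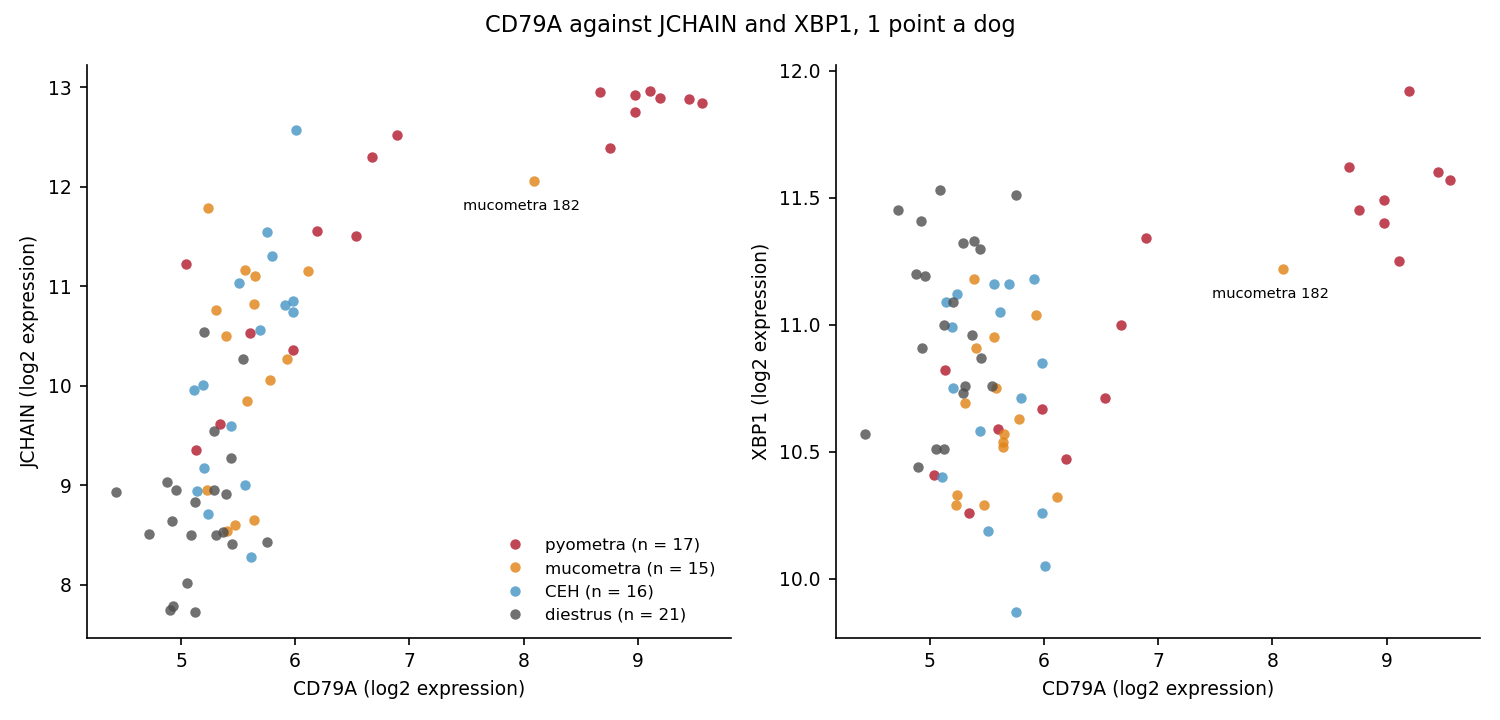
CD79A (horizontal axes, log2) against JCHAIN and XBP1 (vertical axes, log2), 1 point per dog, coloured by diagnosis. JCHAIN reaches 11 to 12 in mucometra and CEH dogs whose CD79A stays near 5 to 6, and XBP1 in the upper pyometra set (11.25 to 11.92) overlaps the diestrus range (10.44 to 11.53).

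Genes with the pattern most like 4 of these genes were ranked by Pearson's r over the 69 dogs after the mean of each diagnosis was subtracted, as a description, since the split among dogs with pyometra and dog 182 carry much of it. For CD79A the 5 closest were MZB1 (r = 0.93), POU2AF1 (0.93), IRF4 (0.92), PIM2, a survival kinase (0.90), and the unnamed locus LOC488248 (0.89). With MS4A1 they were BTLA, an inhibitory receptor of lymphocytes (0.88), LOC488248 (0.88), MZB1 (0.86), SLAMF7, a receptor on plasma and NK cells (0.86), and CD79A (0.85). JCHAIN was followed by POU2AF1 (0.74), PIM2 (0.67), SLAMF6 (0.66), CLEC2D (0.65) and SLAMF7 (0.65), and within pyometra alone its r with POU2AF1 was 0.93. XBP1 kept to other genes: ELL2, an elongation factor used by plasma cells and other secretory cells (0.81), the sialic acid enzyme GNE (0.77), STEAP2 (0.75), ROGDI (0.74) and the proton pump subunit ATP6V1A (0.74). PRDM1, looked at after its values were seen, was closest to ST8SIA4 (0.75), PDGFRB, a receptor of stromal cells and pericytes (0.74), and TGFBR2 (0.74), and none of its 10 closest genes was among the 9.

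Of 16 measured genes of the B cell receptor and its signalling, 10 were higher in pyometra than in diestrus and none lower (6.72% and 3.26% of all genes). Their median log2 fold change was 1.59. The largest were the kinases BTK (2.36 ± 0.22) and SYK (2.11 ± 0.23), CD180, a Toll-like receptor relative on B cells (2.06 ± 0.25), and PIK3AP1 (1.96 ± 0.25). CD22, an inhibitory receptor of B cells named after its values were seen, was 1.92 ± 0.19 higher and had medians of 7.49 in pyometra, 6.38 in mucometra, 5.96 in CEH and 5.56 in diestrus. Several of these genes, among them BTK, SYK and PIK3AP1, are also used by macrophages and neutrophils. CD72 and BLK, also named after their values were seen, had 0.22 ± 0.07 and 0.21 ± 0.10 and were not called. Against mucometra 9 of the 16 were higher and none lower (2.82% and 0.834% of all genes). In mucometra against diestrus FCMR, the receptor for IgM, was higher (1.12 ± 0.12, adjusted p = 2.26e-09) and LYN, a kinase, lower (-1.77 ± 0.15, adjusted p = 4.78e-11), and LYN was the only one of the 16 called in CEH (-1.18 ± 0.23, adjusted p = 0.000471).

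Of 12 B cell transcription factors 4 were higher in pyometra than in diestrus and none lower (6.72% and 3.26% of all genes). They were SPI1 (2.47 ± 0.24), which myeloid cells use at high level, IKZF1 (1.77 ± 0.19), IKZF3 (1.56 ± 0.21) and MEF2C (1.11 ± 0.19). PAX5, the factor that defines the B cell and is lost in plasma cells, had nearly the same level in every diagnosis. Its medians were 5.28 in pyometra, 5.33 in mucometra, 5.27 in CEH and 5.25 in diestrus, with a difference of 0.09 ± 0.08 between pyometra and diestrus (adjusted p = 0.38). These levels are below the median of all genes over all arrays (7.03), and whether the probe set reports the transcript was not tested. PAX5 was picked out after its values were seen. Only SPI1 was higher in pyometra than in mucometra (1.49 ± 0.28, adjusted p = 0.000283), where 2.82% of all genes were.

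Of 13 genes of the plasma cell surface and survival 5 were higher in pyometra than in diestrus and none lower (6.72% and 3.26% of all genes). They were SLAMF7 (2.78 ± 0.36), PIM2 (2.43 ± 0.35), TNFRSF17, the receptor BCMA on plasma cells (2.31 ± 0.40), CD38 (2.03 ± 0.18) and SDC1, syndecan 1 (1.66 ± 0.24), which epithelium also carries. TNFRSF17 lay between 3.40 and 8.75 in pyometra, 3.05 and 6.09 in mucometra, 2.85 and 4.29 in CEH and 2.73 and 4.62 in diestrus. The receptors TNFRSF13B and TNFRSF13C of the same list, named after their values were seen, had -0.09 ± 0.05 and 0.14 ± 0.05. In mucometra CD38 (1.41 ± 0.14) and SLAMF7 (1.04 ± 0.19) were higher than in diestrus. Without mucometra dog 182 SLAMF7 was 0.88 ± 0.15, under the 2-fold filter. By limma none of the 13 was called in CEH against diestrus, where 3 had an unadjusted p under 0.05. Over all genes 0.865% were called higher and 0.953% lower there. By adjusted p alone, the stricter measure, 2044 of the 15947 genes were higher and 2143 lower.

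Of 13 factors that draw B cells and plasma cells into tissue or keep them alive, 5 were higher in pyometra than in diestrus. None was lower (6.72% and 3.26% of all genes). TNFSF13B (BAFF), a survival factor for B cells, was 2.19 ± 0.22 higher, IL6, which supports plasma cells, 2.13 ± 0.46, CCL28, an attractant for IgA plasma cells made by mucosal epithelium, 1.82 ± 0.25, IL10 1.80 ± 0.16 and IL7 1.57 ± 0.24. CCL28 spanned 5.41 to 9.19 in pyometra, against 4.92 to 5.82 in mucometra, 4.69 to 5.57 in CEH and 4.85 to 5.92 in diestrus. It was 1.76 ± 0.30 higher in pyometra than in mucometra (adjusted p = 0.000111). None of the 13 was called by limma in mucometra or CEH against diestrus, where 6 and 4 had an unadjusted p under 0.05. Of all genes 3.56% and 0.865% were called higher there, and 2.8% and 0.953% lower. By adjusted p alone, the stricter measure, 3566 of the 15947 genes were higher and 3952 lower in mucometra, and 2044 and 2143 in CEH.

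Of 36 measured genes that fold and export secreted proteins 1 was higher in pyometra than in diestrus, TXNDC5, a disulfide isomerase (1.23 ± 0.16, adjusted p = 2.23e-08), and none lower. Over all genes 6.72% were called higher and 3.26% lower there. The median log2 fold change of the list in pyometra was 0.52 against mucometra, 0.42 against CEH and -0.01 against diestrus, where the medians of all genes were -0.03, -0.03 and -0.05. Of the 36 genes 2 were called higher against mucometra and 1 against CEH (2.82% and 4.28% of all genes), none lower. An unadjusted p under 0.05 was found for 33, 25 and 13 of them against mucometra, CEH and diestrus. The count of all genes at an unadjusted p is not given here, so these counts have no like share beside them. By adjusted p alone, the stricter measure, 3618 of the 15947 genes were higher and 4569 lower against diestrus. Against mucometra these counts were 2887 and 2778, and against CEH 2961 and 3346. Against diestrus the median of the list was -0.50 in mucometra and -0.35 in CEH. In mucometra SEC11C, a subunit of the signal peptidase (-1.13 ± 0.23), and HYOU1, a chaperone (-1.34 ± 0.19), were lower than in diestrus and none of the 36 higher. SEC11C (1.13 ± 0.25) and EDEM1 (1.07 ± 0.23) were higher in pyometra than in mucometra. Of 8 genes of the PERK branch of the unfolded protein response none was called in pyometra against diestrus by limma (6.72% of all genes higher, 3.26% lower). Of these 8 genes 5 had an unadjusted p under 0.05. In mucometra ATF3 (2.45 ± 0.38) and PPP1R15A (1.54 ± 0.16) were higher than in diestrus.

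Of 7 genes of antibody transport and Fc receptors 4 were higher in pyometra than in diestrus and none lower (6.72% and 3.26% of all genes). FCER1G (2.96 ± 0.24), FCGR1A (2.76 ± 0.31) and FCGR2B (2.02 ± 0.20) bind or signal for antibody on myeloid cells, and FCGR2B on B cells too. PIGR, the epithelial receptor that carries J chain-linked IgA and IgM into the lumen, had medians of 11.08 in pyometra, 9.69 in mucometra, 10.14 in CEH and 9.49 in diestrus. It was 1.41 ± 0.25 higher in pyometra than in diestrus (adjusted p = 1.08e-05) and 1.02 ± 0.27 higher than in mucometra (adjusted p = 0.00376), where it was just under the 2-fold filter without mucometra dog 182 (0.997). Against CEH its difference was 0.91 ± 0.35 (adjusted p = 0.0371), under the 2-fold filter. Of the 7 genes 3 were called higher and none lower in pyometra than in CEH (4.28% and 1.67% of all genes). Against mucometra 4 were higher and none lower (2.82% and 0.834%), and without mucometra dog 182 3 were higher.

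**Figure D5:**
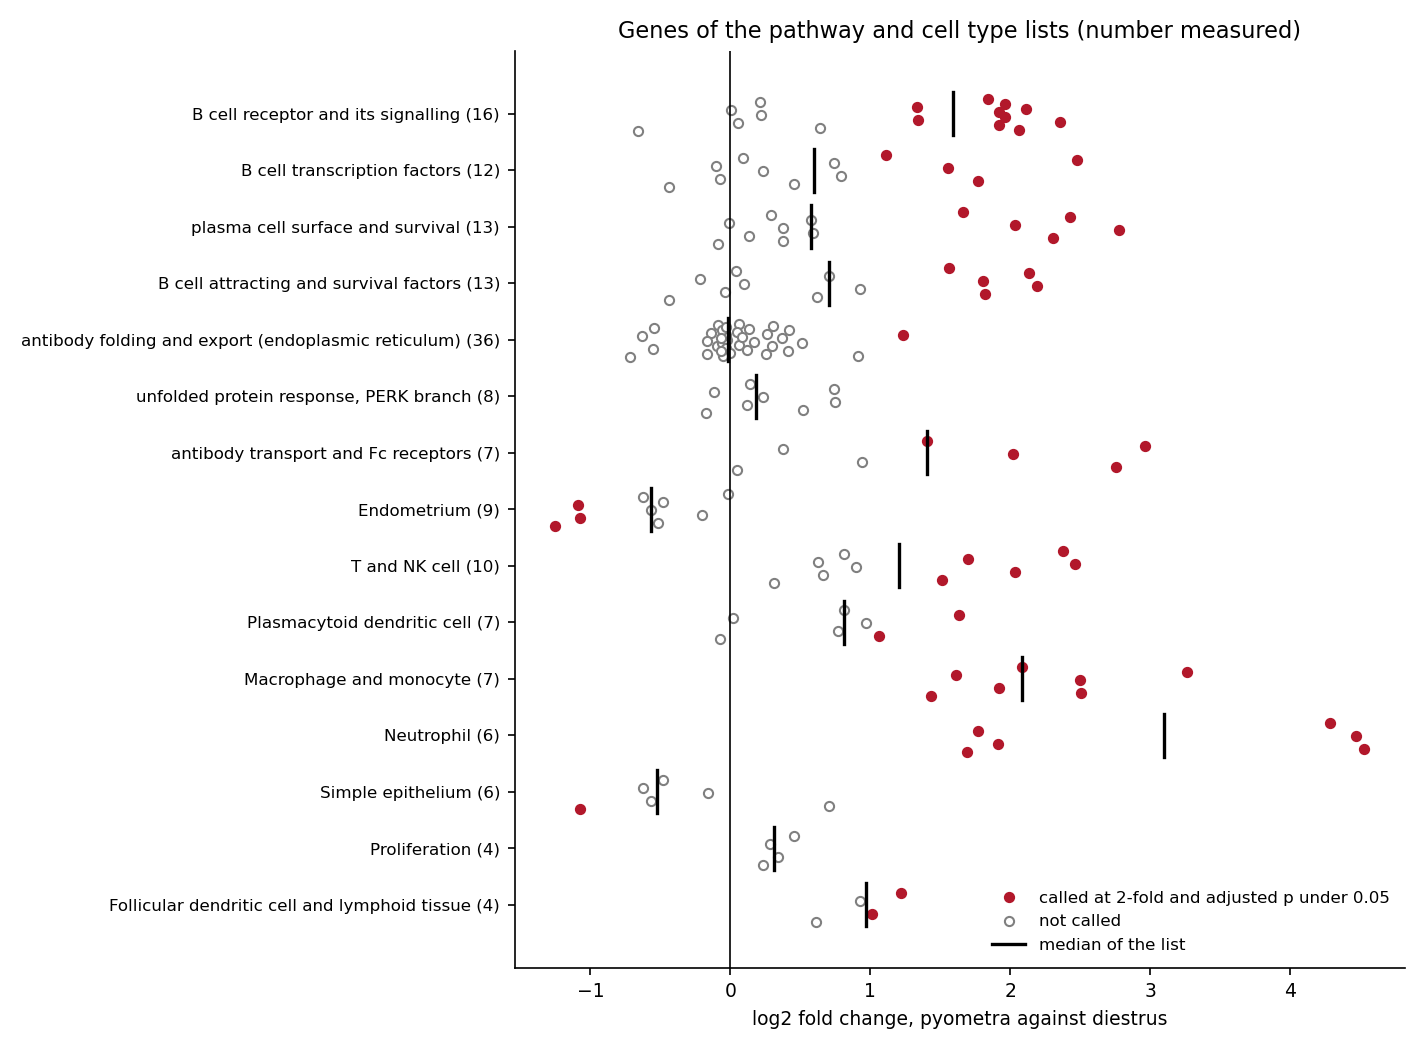
Log2 fold change in pyometra against diestrus (horizontal axis) of every measured gene of the pathway and cell type lists (rows, with the number of genes), filled where called, with the median of each list as a bar. The list of protein folding and export has its median at -0.01, the B cell receptor list has 10 of 16 genes called, and the neutrophil list has 6 of 6.

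Markers of other cells moved with the diagnoses as well. In pyometra against diestrus, where 6.72% of all genes were called higher, 7 of 7 macrophage and monocyte markers and 6 of 6 neutrophil markers were. So were 5 of 10 of T and NK cells, 2 of 7 of plasmacytoid dendritic cells and 2 of 4 of lymphoid tissue. The mean of the macrophage markers ran from 6.94 to 9.76 in pyometra, from 6.65 to 8.23 in mucometra, from 5.80 to 7.98 in CEH and from 5.96 to 7.33 in diestrus. The mean of the neutrophil markers ran from 5.59 to 10.8 in pyometra, 5.39 to 6.84 in mucometra, 5.0 to 6.30 in CEH and 4.64 to 5.69 in diestrus, so the infected uteri held the highest values of both. The mean of the T and NK cell markers ran from 5.13 to 7.91 in pyometra, 5.11 to 7.48 in mucometra, 4.88 to 6.86 in CEH and 4.76 to 5.99 in diestrus. Of 9 endometrial markers ESR1 (-1.09 ± 0.22), EPCAM (-1.07 ± 0.15) and FOXA2 (-1.25 ± 0.12) were lower in pyometra than in diestrus (3.26% of all genes). The mean of the 9 ran from 7.77 to 8.85 in pyometra, against 8.95 to 9.17 in diestrus. The part of these cells in the results for the 9 genes was not tested.

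The 2 sets of dogs with pyometra also differed in some of these means. The mean of the plasma cell surface list ran from 7.36 to 8.0 in the upper set and from 6.07 to 6.97 in the lower, with no overlap, and had medians of 7.58 and 6.35. This list is not independent of how the sets were drawn. Within pyometra its genes PIM2, TNFRSF17 and SLAMF7 had r = 0.96, 0.97 and 0.95 with CD79A. The macrophage means were 8.53 to 9.76 in the upper set and 6.94 to 9.34 in the lower, with medians of 9.12 and 7.88. The neutrophil means were 7.26 to 10.8 in the upper set and 5.59 to 9.41 in the lower, with medians of 9.34 and 8.07. In both of these lists the upper set was higher by its median and the ranges overlapped. The endometrial means were 7.77 to 8.44 in the upper set and 8.32 to 8.85 in the lower. The mean of the folding and export list was 9.81 to 10.2 in the upper set and 8.87 to 9.76 in the lower, again with no overlap. The sets were drawn from the 9 genes, and how often a list separates them was not tested, so this is a description. The B cell receptor list overlapped between the sets, with medians of 7.37 in the upper set and 6.71 in the lower. So did B cell transcription factors (7.51 and 7.05) and the factors that draw B cells or keep them alive (6.54 and 5.99). The same held for T and NK cells (6.81 and 6.04) and proliferation markers (8.13 and 6.27). The part of the listed cell types in the split between the sets was not tested.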

How the data were processed

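Endometrial RNA of 69 dogs was measured on Affymetrix Canine Gene 1.0 ST arrays, 1 array per dog. The authors normalised all arrays together by RMA and deposited log2 values for 32391 probe sets (array medians 6.20 to 6.34), which were used unchanged. Of the probe sets, 16545 carry 1 gene symbol and 370 several; only the first were used, with the probe set of highest mean per gene (15947 genes). The number of arrays limits the precision.

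Diagnosis came from the sample titles. Each comparison was fitted over all genes with limma 3.58.1 (lmFit, eBayes) in R 4.3.3, on the groups compared only, with no covariate. Calls needed a 2-fold change and a Benjamini-Hochberg adjusted p under 0.05, the filters of the study's methods. The fit was tested on simulated data. Correlations were tested with 100000 permutations, except within dogs with pyometra, where r is a description (Python 3.11.15, numpy and scipy), and drawings matplotlib. The 9 genes and the gene lists were chosen with earlier results of these data known. Named were the 9 genes, up to 4 genes per list with the largest change past the filters (all where 5 or fewer passed), and the 5 genes most like JCHAIN, CD79A, MS4A1 and XBP1; others are marked. The most alike arrays, pyometra dog 100 and mucometra dog 216 (r = 0.993), were left out as an alternative. Other alternatives were a shared fit, array weights, no fold filter, median centring, averaged probe sets, a trended prior, a filter on means under 5 and case number as a covariate.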

Additional observations from a re-analysis of the deposited data

How the results depend on the processing

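Each count of called genes stayed within 1.5 times its value in 63 of 66 repeats. Without the 2-fold filter 7 of the 9 genes passed in CEH and 8 in mucometra (7 higher, 1 lower), both against diestrus. Fewer conditions had to be met, and of all 15947 genes 2044 were then higher and 2143 lower in CEH. In mucometra 3566 of all genes were higher and 3952 lower. With arrays centred on their medians 1 of the 9, JCHAIN, passed in CEH against diestrus, where PRDM1 had 0.98. Of the values of single genes 569 stayed on their side of the filters with the same sign, 17 passed only without the 2-fold filter, and 2 no longer passed: PRDM1 in CEH, given above, and PRDM1 in pyometra against CEH with case number as a covariate (0.99); the cause was not tested. Another 6 values changed sign, none of which had been called. With case number as a covariate XBP1 was -0.14 in pyometra against diestrus and 0.0745 in mucometra against CEH. Without mucometra dog 182, an alternative added after seeing the data, JCHAIN (-0.0347), MZB1 (-0.0115), POU2AF1 (-0.106) and CD79A (-0.0036) were negative in mucometra against CEH. Leaving out dogs 100 and 216 changed no count of the 9 genes. Over all genes, the 22 called higher in mucometra than in CEH were 51 in a shared fit and 1 with case number as a covariate, and the 235 called lower in pyometra than in the other 3 diagnoses were 150 with that covariate; the cause was not tested. Without the 2-fold filter, 3618 genes were higher and 4569 lower in pyometra than in diestrus (1071 and 520 with it), and 131 higher and 97 lower in mucometra than in CEH, and the counts of the other comparisons also grew by more than 1.5 times. No paired analysis was possible because each dog gave 1 array and no case number is shared between diagnoses. The 9 genes have 1 probe set each, so averaging probe sets left their correlations as they were.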
